A study of Mus musculus with 11 samples.

Results

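The genes described here are 7 basic helix-loop-helix (bHLH) transcription factors of neurogenesis in the mouse embryo brain: Neurog1, Neurog2, Atoh1, Neurod1, Neurod4, Nhlh1 and Nhlh2. They were taken by symbol, and all 7 were found among the 27179 genes counted and all 7 passed the filter on low counts, which kept 14542 genes. RNA came from the brains of 11 embryos at embryonic day 9.5, cut just behind the otic vesicle, with 1 library per embryo. The mice were C57BL/6, and every embryo was labelled as carrying 1 mutant copy of Bim (Bcl2l11, a pro-apoptotic gene), the control embryos included. The 4 affected females were p53-/- Bim+/-, the 4 control males were also p53-/- Bim+/-, and the 3 control females were p53+/+ Bim+/-. In what way these females were affected is not stated in the labels. Mouse embryos without p53 are known to fail at times to close the cranial neural tube, females more often than males. So affected females against control males compares p53-null embryos that differ in sex and in being affected, and affected females against control females compares embryos of 1 sex, of which only the affected ones lack p53. Control males against control females compares embryos that differ both in p53 genotype and in sex, which cannot be told apart here. Litters and somite numbers do not appear in the labels, and p-values measure the spread between these embryos.

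bHLH factors bind DNA at E-boxes, usually as pairs with a broadly expressed E-protein such as Tcf3, Tcf4 or Tcf12. Proneural factors (Neurog1, Neurog2, Atoh1) commit neuroepithelial progenitors to a neuronal fate and switch on Notch ligands, through which neighbouring cells are held back as progenitors. Factors of neuronal differentiation (Neurod1, Neurod4) are known to be switched on after them, as cells leave the cell cycle, and Nhlh1 and Nhlh2 mark newly born neurons. In the mouse head at this stage the same factors also work in the neurogenic placodes, which form the neurons of the cranial sensory ganglia. In a bulk sample, fewer cells of a type and less RNA per cell cannot be told apart.

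Library totals lay between 8211942 and 11218682 counts. Neural progenitor genes (9 genes, among them Sox1, Sox2, Pax6 and Nes) were all detected in each group, with summed levels of 745 to 902 CPM (counts relative to library size, scaled by TMM) in affected females, 731 to 962 CPM in control males and 659 to 978 CPM in control females. Trunk Hox and Cdx genes summed to at most 1.49 CPM in any embryo. Trp53 RNA ranged over 107 to 139 CPM in affected females, against 112 to 132 CPM in the control males and 105 to 125 CPM in the control females; a count over the whole gene need not show a partial deletion, so it does not check the p53 genotype. Bcl2l11 RNA was at 38.2 to 47.3 CPM in affected females, against 36.0 to 47.7 CPM in the control males and 71.0 to 82.1 CPM in the control females, although the label gives the same Bim genotype for all; the cause was not tested. The Y-linked gene Ddx3y was at 83.4 to 115 CPM in control males and at most 0.212 CPM in any female, which fits the labelled sexes. Xist, the RNA of the inactive X chromosome, was at 1435 to 2167 CPM in affected females, against 8.72 to 13.2 CPM in the control males and 4391 to 5959 CPM in the control females, so the female groups did not overlap; the cause was not tested. Control female 1 stood apart from control females 2 and 3, with a summed level of 501 CPM of 5 primitive erythroid markers against 3920 and 4113 CPM, and with levels of the bHLH genes near those of the affected females. The share of counts from mitochondrial genes ran from 1.31% to 1.69% in affected females, from 2.06% to 3.82% in control males and from 2.48% to 4.99% in control females, with control female 1 at 2.48%. The part of these differences in the results was not tested. Levels are TMM-normalised CPM throughout. Differences are log2 fold changes with a standard error (SE), tested by quasi-likelihood in edgeR, with p adjusted by Benjamini-Hochberg over all 14542 genes and a threshold of 0.05.

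All 7 bHLH genes were lower in affected females than in control males, by 1.68-fold (Neurog2) to 4.72-fold (Nhlh2). In this comparison 7 of 7 fell and 0 rose, against 20.2% of all tested genes called in either direction, 9.51% called higher and 10.7% called lower. The median log2 fold change of the 7 was -1.71, against -0.02 over all tested genes. The CPM ranges of affected females and control males did not overlap for any of the 7, against 19.5% of all tested genes. Against control females, 4 of 7 fell and 0 rose (Neurod1, Neurod4, Nhlh1 and Nhlh2), against 28.0% of all tested genes called, 13.0% higher and 15.0% lower, and the median log2 fold change of the 7 was -1.43, against -0.00 over all tested genes. Here the ranges did not overlap for 2 of 7, Nhlh1 and Nhlh2, against 40.2% of all tested genes. Between control males and control females 0 of 7 passed the test, with edgeR's quasi-likelihood test, against 0.144% of all tested genes (0.0481% higher and 0.0963% lower), and 0 of 7 had an unadjusted p under 0.05. DESeq2 called 0 of 7 there, and limma voom with sample weights called 1, Nhlh2 (log2 fold change -0.79). Of all 14542 tested genes DESeq2 called 43 there and limma voom 1569. Both comparisons of affected females use the same 4 embryos and are not independent of each other.

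The number called moved with single embryos. Without control female 1, 7 of 7 fell in affected females against control females, where 31.1% of all tested genes were called. Without affected female 2, affected female 3, control female 2 or control female 3 the number was 2, Nhlh1 and Nhlh2, with 23.7%, 13.6%, 13.1% and 11.3% of all tested genes called in those fits. Against control males the 7 calls came to 2 without affected female 3, where 2.49% of all tested genes were called. They came to 3 without affected female 2 or control male 1 (16.0% and 4.55% of all tested genes), and to 4 without affected female 1, affected female 4 or control male 2 (14.2%, 8.10% and 7.82%). In each of the fits named above with fewer of the 7 called, a smaller share of all genes was called too. Without control male 4 the share rose instead, to 35.4% of all tested genes, while 6 of 7 were called against control males. Nhlh1 and Nhlh2 kept their call in each of these fits. The calls of the other genes against control males were each lost in some fit. Over all fits run, by edgeR, DESeq2 or limma voom, their highest adjusted p there was 0.136 (Neurog1), 0.113 (Neurog2), 0.0784 (Atoh1), 0.0501 (Neurod1) and 0.123 (Neurod4).

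**Figure D1:**
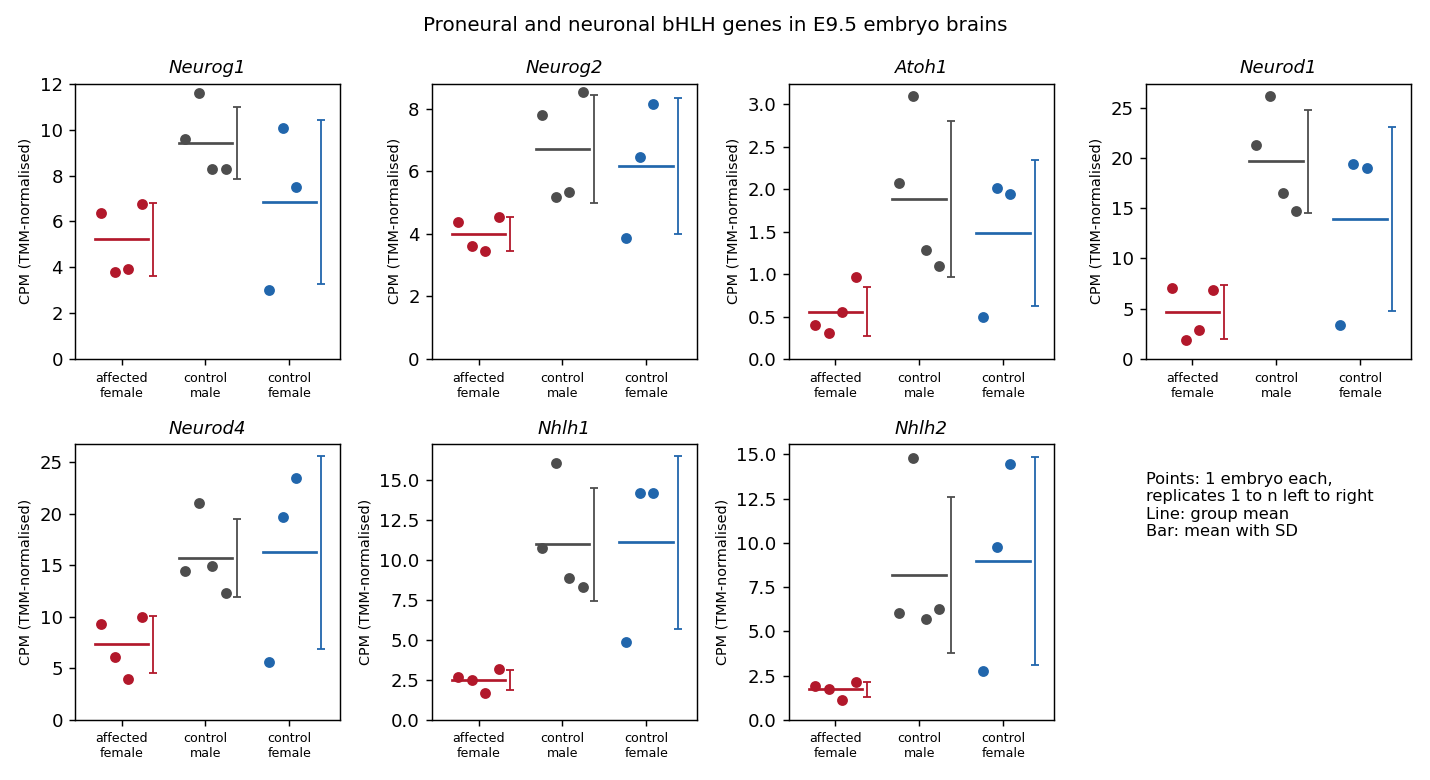
Level of each bHLH gene (y axis, TMM-normalised CPM, each panel with its own scale from 0) in affected females, control males and control females; each point is 1 embryo, the line is the group mean and the bar is the mean with its SD (n = 4, 4 and 3). In every panel the affected females lie below all control males, and 1 of the 3 control females lies below the other control females.

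Neurog1 and Neurog2 encode the neurogenins, which set off neurogenesis in the ventral and intermediate neural tube and in the placodes. They had the smallest differences of the 7. Neurog1 (chr13:56250478-56252180) was at 6.38, 3.80, 3.91 and 6.78 CPM in affected females 1 to 4. It was at 9.59, 11.6, 8.29 and 8.27 CPM in control males 1 to 4, and at 2.99, 10.1 and 7.51 CPM in control females 1 to 3. Every affected female lay below every control male, while control female 1 was the lowest of all 11 embryos. The fall against control males was 1.80-fold (log2 fold change -0.85, SE 0.28, adjusted p = 0.0448 by edgeR). Against control females the log2 fold change was -0.41 (SE 0.31, adjusted p = 0.326 by edgeR), which did not pass. It was -0.74 without control female 1 (adjusted p = 0.0329 by edgeR) and -0.045 without control female 2 (adjusted p = 0.937).

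Neurog2 (chr3:127632733-127635636) was at 4.39, 3.60, 3.45 and 4.55 CPM in affected females, against 7.81, 5.17, 5.33 and 8.54 CPM in the control males and at 3.86, 6.47 and 8.16 CPM in the control females. The affected females spanned the narrowest range of the 3 groups, and control female 1 lay inside it. The fall against control males was 1.68-fold (log2 fold change -0.75, SE 0.23, adjusted p = 0.0368 by edgeR). Against control females it did not pass (log2 fold change -0.64, SE 0.26, adjusted p = 0.0696 by edgeR), and it did without control female 1 (log2 fold change -0.87, adjusted p = 0.0149 by edgeR). Without control female 3 the log2 fold change was -0.38 (adjusted p = 0.354 by edgeR).

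The start regions of the neurogenin genes were chosen after their levels and E-boxes had been seen. Those of Nhlh1 and Nhlh2 are given further on. Each run covers 250 bases before and 50 bases after the RefSeq transcription start on GRCm38.p6, 300 bases in all, written 5′ to 3′ on the gene's strand. Capitals mark the E-box CANNTG, whose letters read the same pattern on both strands.
Neurog1 (chr13:56252131-56252430, minus strand): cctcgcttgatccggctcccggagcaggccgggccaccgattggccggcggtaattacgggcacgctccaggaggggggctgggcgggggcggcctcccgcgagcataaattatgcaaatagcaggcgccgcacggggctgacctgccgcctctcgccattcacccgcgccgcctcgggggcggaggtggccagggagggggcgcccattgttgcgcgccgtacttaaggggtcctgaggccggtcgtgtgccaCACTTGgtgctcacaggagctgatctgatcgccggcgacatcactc
Neurog2 (chr3:127632886-127633185, plus strand): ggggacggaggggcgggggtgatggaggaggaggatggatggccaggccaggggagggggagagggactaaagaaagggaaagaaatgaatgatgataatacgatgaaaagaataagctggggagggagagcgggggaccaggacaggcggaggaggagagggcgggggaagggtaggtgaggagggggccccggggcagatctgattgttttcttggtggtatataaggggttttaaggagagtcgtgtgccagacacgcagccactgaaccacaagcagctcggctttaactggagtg
Neurog1 held 1 such site, CACTTG, 4 bases after the start, and Neurog2 held 0. The Neurog2 window lies inside the gene span given above, so its 0 holds for this start only. Bases before the outer end of that span were not searched. Of the 32851 mouse promoters of the same length, 72.3% held at least 1 CANNTG. A match describes letters in the sequence and not a bound site.

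Atoh1 encodes the proneural factor of the rhombic lip, the dorsal edge of the hindbrain from which cerebellar granule neurons and several brainstem nuclei arise. It was the least abundant of the 7, with raw counts of 4, 3, 6 and 10 in affected females. Its levels (chr6:64729125-64731245) were 0.399, 0.308, 0.559 and 0.969 CPM in affected females, against 2.07, 3.10, 1.28 and 1.09 CPM in control males. In control females 1 to 3 it was at 0.498, 2.01 and 1.95 CPM. Affected female 4 came close to control male 4, and control female 1 lay among the affected females. The fall was 3.27-fold against control males (log2 fold change -1.71, SE 0.48, adjusted p = 0.0245 by edgeR). Against control females the log2 fold change was -1.43 (SE 0.53, adjusted p = 0.0548 by edgeR), just outside the threshold. The adjusted p was 0.0441 without the low-count filter and 0.0148 without control female 1, and 0.191 and 0.199 without control female 2 or 3, all by edgeR. Of 5 other genes of the rhombic lip and its derivatives, 3 could be tested and 0 of 3 passed in either comparison by edgeR or DESeq2. At an unadjusted p under 0.05 the number was 1 of 3 against control males and 0 of 3 against control females. Limma voom called 1 of 3 lower in each, with 3251 of all 14542 tested genes against control males and 3947 against control females. Without control female 1, 4 of the 5 rhombic lip genes could be tested. Of these, 1 of 4 was lower against control females, where 16.2% of all tested genes were called lower. Against control males 0 of 4 passed in that fit, with 13.1% of all tested genes called lower, and 1 had an unadjusted p under 0.05 by edgeR. Lmx1a, a roof plate and rhombic lip factor, was at 20.3 ± 2.10 CPM in affected females, against 19.6 ± 1.70 CPM in the control males and 18.9 ± 2.85 CPM in the control females (SD, n = 4, 4 and 3). Lhx9 of the same list averaged 1.16 ± 0.585 CPM in affected females (SD). In control males Lhx9 was at 2.31 ± 0.988 CPM and in control females at 2.04 ± 1.27 CPM. Its log2 fold changes were -0.98 against control males and -0.86 against control females (adjusted p = 0.120 and 0.184 by edgeR). Those of Barhl2 were -0.05 and -0.11.

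Neurod1 and Neurod4 drive differentiation in cells that have been through the neurogenin step. Neurod1 (chr2:79452637-79456636) was at 7.08, 1.85, 2.89 and 6.88 CPM in affected females. It was at 21.3, 26.2, 16.5 and 14.7 CPM in control males and at 3.36, 19.4 and 19.0 CPM in control females. The highest affected female had less than every control male and less than control females 2 and 3, while control female 1 lay between the affected females. The fall was 4.19-fold against control males (log2 fold change -2.07, SE 0.43, adjusted p = 0.0107 by edgeR) and 3.02-fold against control females (log2 fold change -1.59, SE 0.47, adjusted p = 0.0224 by edgeR). The call against control females was lost with edgeR's robust fit (adjusted p = 0.0594) and without affected female 2, affected female 3, control female 2 or control female 3 (adjusted p = 0.0525 to 0.105 by edgeR). Affected females 1 and 4 held more Neurod1 than affected females 2 and 3, with no other affected female between the pairs.

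Neurod4 (chr10:130268152-130280254) was at 9.27, 6.06, 4.01 and 9.98 CPM in affected females, against 14.5, 21.1, 14.9 and 12.3 CPM in the control males and at 5.61, 19.7 and 23.5 CPM in the control females. The order of the affected females was like that for Neurod1, with replicates 1 and 4 above replicates 2 and 3. The fall was 2.14-fold against control males (log2 fold change -1.10, SE 0.35, adjusted p = 0.0379 by edgeR) and 2.25-fold against control females (log2 fold change -1.17, SE 0.37, adjusted p = 0.0293 by edgeR). With DESeq2 neither Neurod4 call held (adjusted p = 0.0642 against control males and 0.0604 against control females), and with edgeR's robust fit neither held (adjusted p = 0.0641 and 0.0529).

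Nhlh1 and Nhlh2 are expressed in neurons soon after their last division, and they showed the largest falls. Nhlh1 (chr1:172052292-172057596) was at 2.69, 2.47, 1.68 and 3.20 CPM in affected females, against 10.7, 16.0, 8.88 and 8.27 CPM in the control males and at 4.86, 14.2 and 14.2 CPM in the control females. Every affected female lay below every control embryo of either sex, control female 1 included. The fall was 4.36-fold against control males (log2 fold change -2.12, SE 0.33, adjusted p = 0.00475 by edgeR) and 4.46-fold against control females (log2 fold change -2.16, SE 0.35, adjusted p = 0.00248 by edgeR).

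Nhlh2 (chr3:102010111-102015492) was at 1.89, 1.75, 1.12 and 2.13 CPM in affected females, against 6.02, 14.8, 5.72 and 6.27 CPM in the control males and at 2.74, 9.75 and 14.5 CPM in the control females. As for Nhlh1, the affected females formed the bottom of the order and control female 1 came next above them. Control male 2 was far above the other control males. The fall was 4.72-fold against control males (log2 fold change -2.24, SE 0.45, adjusted p = 0.0102 by edgeR) and 5.30-fold against control females (log2 fold change -2.41, SE 0.48, adjusted p = 0.00438 by edgeR). Between control males and control females the log2 fold changes of the 7 genes lay from -0.17 (Nhlh2) to 0.47 (Neurod1), with SEs of 0.24 to 0.44.

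**Figure D2:**
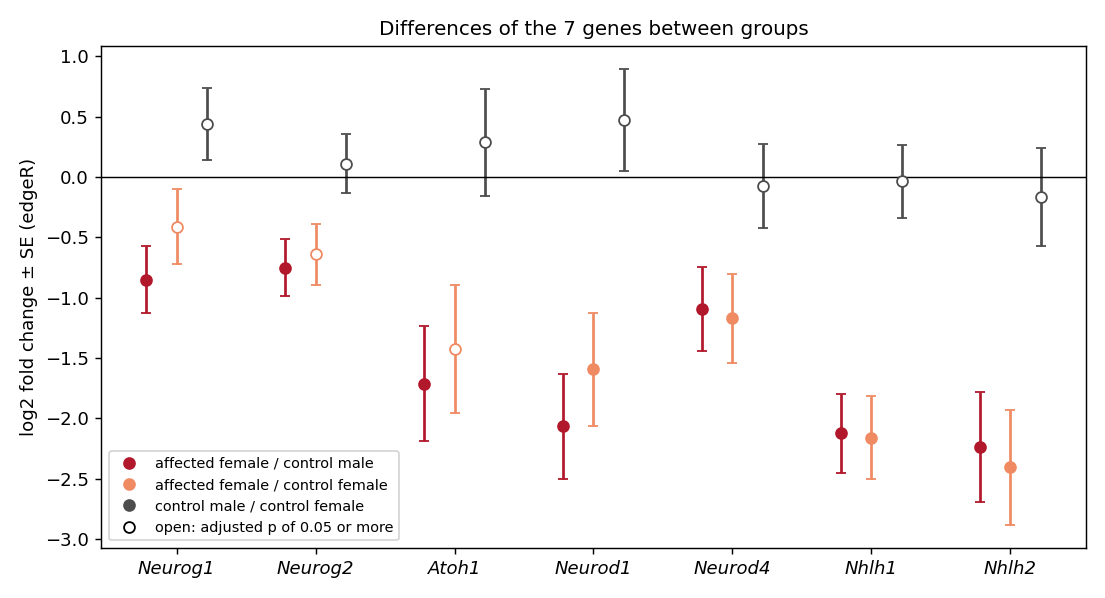
Log2 fold change (y axis) of each of the 7 genes (x axis) for affected females over control males, affected females over control females, and control males over control females; bars are ± SE from the edgeR fit over 11 embryos, filled points have an adjusted p under 0.05 and open points do not. In the comparisons of affected females the falls are smallest for the neurogenins (-0.41 to -0.85) and largest for Nhlh1 and Nhlh2 (-2.12 to -2.41), and the control comparison stays between -0.17 and 0.47.

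The start regions of Nhlh1 and Nhlh2 are shown because these genes had the largest and the most alike differences. Proneural factors act through E-boxes, but any link between the E-boxes of these genes or the neurogenins and their differences was not tested. Both runs cover the same window as for the neurogenins, with CANNTG in capitals, on GRCm38.p6 from RefSeq.
Nhlh1 (chr1:172057547-172057846, minus strand): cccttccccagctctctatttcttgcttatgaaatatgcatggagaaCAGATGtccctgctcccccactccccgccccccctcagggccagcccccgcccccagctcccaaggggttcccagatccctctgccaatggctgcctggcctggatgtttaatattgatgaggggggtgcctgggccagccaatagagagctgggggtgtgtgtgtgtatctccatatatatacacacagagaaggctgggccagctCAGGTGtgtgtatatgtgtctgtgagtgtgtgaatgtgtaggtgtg
Nhlh2 (chr3:102009895-102010194, plus strand): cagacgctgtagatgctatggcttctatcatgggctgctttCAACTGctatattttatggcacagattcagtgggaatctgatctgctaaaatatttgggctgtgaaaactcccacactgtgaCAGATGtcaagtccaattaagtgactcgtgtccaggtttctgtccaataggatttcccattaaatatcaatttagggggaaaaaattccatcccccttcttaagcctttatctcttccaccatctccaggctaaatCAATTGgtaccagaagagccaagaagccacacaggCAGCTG
Nhlh1 held 2 E-boxes, CAGATG 203 bases before the start and CAGGTG 4 bases after it. Nhlh2 held 4, CAACTG and CAGATG 209 and 127 bases before the start, and CAATTG and CAGCTG 9 and 44 bases after it. The form CAGATG, counted on either strand and a special case of CANNTG, was in both windows and in 17.2% of all 32851 promoters, and CAGCTG was in 16.3%. Neurod1 held 1 E-box, CATATG, 242 bases before its start, Atoh1 held 0, and the 2 listed starts of Neurod4 held 0 and 1. In all, 5 of the 7 genes had at least 1 CANNTG in a window, where 72.3% of all 32851 promoters held at least 1. How many promoters held 2 or more was not counted, so the numbers of sites per window are not compared.

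Within each embryo the later genes were set against the earlier ones, as the summed CPM of Nhlh1 and Nhlh2 divided by that of Neurog1 and Neurog2. This ratio was chosen after the levels had been seen and has no test; gene lengths are the same in every embryo, so only its order between embryos is read. It was 0.426, 0.569, 0.380 and 0.470 in affected females, 0.962, 1.84, 1.07 and 0.865 in control males, and 1.11, 1.45 and 1.83 in control females. The 4 affected females lay below all 7 control embryos, and control female 1, which was low in the single genes, lay within the control range. For Neurod1 and Neurod4 over the neurogenins the ratio was 1.52, 1.07, 0.937 and 1.49 in affected females, 2.05, 2.82, 2.30 and 1.61 in control males, and 1.31, 2.37 and 2.71 in control females. On this measure control female 1 lay inside the range of the affected females.

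**Figure D3:**
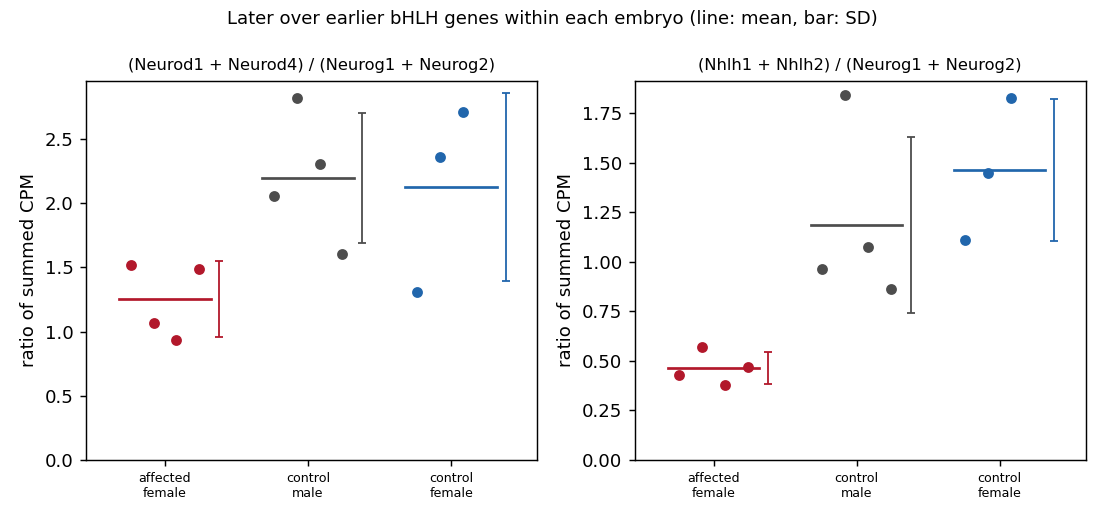
Ratio of summed CPM within each embryo (y axis, from 0): Neurod1 plus Neurod4 over Neurog1 plus Neurog2 (left) and Nhlh1 plus Nhlh2 over Neurog1 plus Neurog2 (right), for affected females, control males and control females; points are embryos, lines are means and bars are the mean with its SD (n = 4, 4 and 3). On the right the affected females lie between 0.380 and 0.569 and the control embryos between 0.865 and 1.84, and on the left control female 1 lies among the affected females.

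Summed over the 7 genes, the level was 32.1, 19.8, 17.6 and 34.5 CPM in affected females, against 71.9, 97.9, 60.9 and 59.4 CPM in control males. In control females 1 to 3 it was at 23.9, 81.6 and 88.7 CPM. Affected female 3 was the lowest of all embryos for 4 of the 7 genes and affected female 2 for 2, and control male 2 was the highest for 5. Control female 1 was among the 4 lowest embryos for 5 of 7, the exceptions being Nhlh1 and Nhlh2.

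The order of the genes by level was read per length, as CPM per kilobase of counted exon. In affected females Neurog1 was first at 3.12 ± 0.946, followed by Neurod4 at 2.19 ± 0.835, Neurod1 at 1.87 ± 1.08, Neurog2 at 1.80 ± 0.250, Nhlh1 at 1.01 ± 0.254, Nhlh2 at 0.514 ± 0.129 and Atoh1 at 0.266 ± 0.139 CPM per kilobase (SD, n = 4). Of these neighbours only Neurog2 and Nhlh1, and Nhlh1 and Nhlh2, had ranges that did not overlap. In control males Neurod1 led with 7.88 ± 2.06 CPM per kilobase, then Neurog1 with 5.64 ± 0.933, Neurod4 with 4.69 ± 1.13, Nhlh1 with 4.41 ± 1.42, Neurog2 with 3.03 ± 0.775, Nhlh2 with 2.45 ± 1.31 and Atoh1 with 0.899 ± 0.436 (SD, n = 4). Only the last step, from Nhlh2 to Atoh1, was free of overlap. In control females Neurod1 was first as well, at 5.58 ± 3.67 CPM per kilobase, and Atoh1 last, at 0.708 ± 0.408 (SD, n = 3), and all neighbours overlapped. By group mean Neurog1 ranked above Neurod1 in affected females and below it in both control groups, although in control female 1 alone it was above, at 1.79 against 1.35 CPM per kilobase.

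Likeness of pattern was measured as the root mean square (RMS) difference of mean-centred log2 CPM over the 11 embryos, where smaller is more alike. Among the 7 genes the closest pair was Nhlh1 and Nhlh2 at 0.24, followed by Neurog1 and Neurod4 at 0.37 and Neurog1 and Neurog2 at 0.40. The farthest pair was Neurod1 and Neurog2 at 0.90. Among all tested genes, St18 (0.25 and 0.28) and Myt1 (0.27 and 0.29), zinc finger factors of neuronal differentiation, were among the 3 nearest to both Nhlh1 and Nhlh2. The third was Wnt7a (0.25), a secreted signal, for Nhlh1, and Epha3 (0.32), an ephrin receptor, for Nhlh2. St18 averaged 1.59 ± 0.908 CPM in affected females, against 6.45 ± 2.47 CPM in the control males and 7.80 ± 4.23 CPM in the control females (SD, n = 4, 4 and 3).

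For Neurod4 the nearest was Insm1 (0.24), a zinc finger factor of neuronal and endocrine precursors, with Vwa1 (0.26) and Shd (0.28). For Neurod1 no gene was as near as for the others: Ppp1r17 was at 0.33, Dnm3os at 0.51 and Epha5 at 0.52. For Neurog1 the nearest were Olig3 (0.20), a bHLH factor of the dorsal neural tube, Prdm12 (0.21), a factor of sensory neuron precursors, and Pcdh8 (0.26). For Neurog2 the 3 nearest included Ntn3 (0.23) and Olig2 (0.24), a bHLH factor of motor neuron progenitors. For Atoh1 they were Chrna3 (0.29), Id4 (0.30) and Hhipl1 (0.30). With a prior count of 0.5 in place of 2, 19 of the 21 neighbours were shared.

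**Figure D4:**
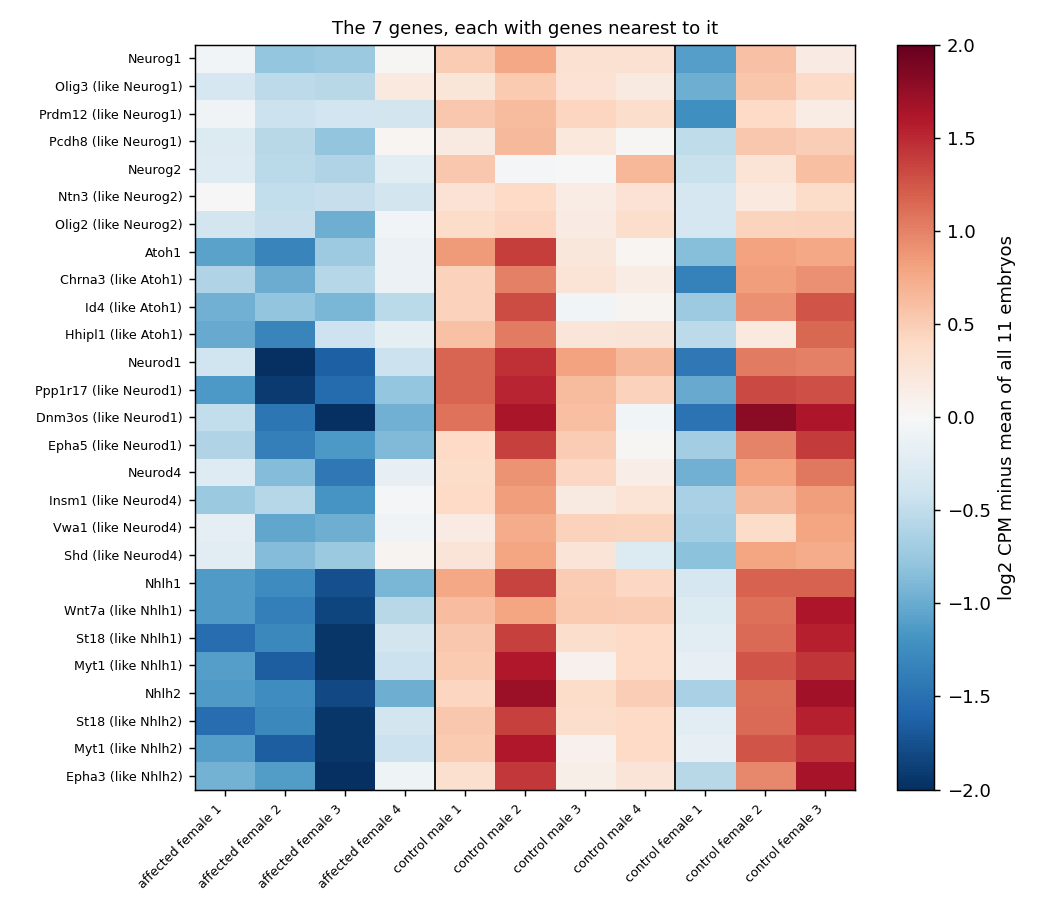
Log2 CPM minus the mean of all 11 embryos (colour, clipped at -2 and 2) for each of the 7 genes and the genes named above as nearest to it by RMS difference (rows) in every embryo (columns, groups divided by black lines). The rows of Nhlh1 and Nhlh2 are low in all 4 affected females, and the rows of Neurog1 and Neurog2 are paler, with control female 1 as low as the affected females.

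Other members of the bHLH system were taken from lists of known function. Of 15 other neural bHLH factors, 8 were abundant enough to test; 2 of 8 fell and 0 rose against each control group, Olig2 and Bhlhe22, where 10.7% of all tested genes were called lower against control males and 15.0% against control females. Bhlhe22, a repressor in postmitotic neurons, averaged 1.10 ± 0.330 CPM in affected females, against 2.63 ± 0.702 CPM in the control males and 3.30 ± 1.09 CPM in the control females (SD, n = 4, 4 and 3). The median log2 fold change of the 8 was -0.34 against control males and -0.06 against control females. Without control female 1, 4 of 9 were lower against each control group. In that fit 16.2% of all tested genes were called lower against control females and 13.1% against control males.

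Of the E-protein partners, Tcf3 rose slightly against control females (86.4 ± 4.34 CPM in affected females and 71.3 ± 8.42 CPM in control females, SD, n = 4 and 3, log2 fold change 0.28, adjusted p = 0.0480 by edgeR). That call was lost without control female 1, where 31.1% of all tested genes were called. In that fit 0 of 3 passed and 0 of 3 had an unadjusted p under 0.05. Against control males, with all embryos, 0 of 3 passed in edgeR and in DESeq2, and 1 of 3 had an unadjusted p under 0.05. Limma voom called 3 of 3 higher there, with 3146 of all 14542 tested genes. Of 11 bHLH antagonists and repressors of neurogenesis, 2 rose (Id3 and Hes3) and 2 fell (Id4 and Hey1) against control females, and 0 rose and 3 fell (Id4, Hey1 and Hey2) against control males. Of all tested genes, 13.0% were called higher and 15.0% lower against control females, and 9.51% and 10.7% against control males. Id4, an inhibitor that binds E-proteins, was at 7.42 ± 1.05 CPM in affected females, against 19.1 ± 9.22 CPM in the control males and 21.2 ± 12.1 CPM in the control females. Its log2 fold change was -1.36 (SE 0.36, adjusted p = 0.0209 by edgeR) against control males and -1.53 (SE 0.38, adjusted p = 0.0111 by edgeR) against control females.

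Of 15 genes reported downstream of proneural factors, 9 fell and 0 rose against control males, with a median log2 fold change of -0.69, and 10 fell and 0 rose against control females, with a median of -0.68. Over all tested genes 10.7% were called lower against control males and 15.0% against control females. Dll3, a divergent Notch ligand, averaged 2.43 ± 0.795 CPM in affected females, against 5.80 ± 1.67 CPM in the control males and 7.63 ± 2.70 CPM in the control females (SD, n = 4, 4 and 3). Its log2 fold change was -1.25 (SE 0.29, adjusted p = 0.0136 by edgeR) against control males and -1.66 (SE 0.30, adjusted p = 0.00336 by edgeR) against control females. Of 17 postmitotic neuron genes, 7 fell against control males (median -0.55) and 10 against control females (median -0.85), and 0 rose in either. Elavl3, an RNA-binding protein of young neurons, was at 8.86 ± 1.65 CPM in affected females, against 18.7 ± 7.40 CPM in the control males and 22.1 ± 8.74 CPM in the control females. Without control female 1, 11 of 15 and 12 of 17 were lower against control females, where 16.2% of all tested genes were called lower.

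Of 10 tested genes of the cranial sensory ganglia and placodes, 3 fell against control females and 4 fell against control males, with Pou4f1 and Isl1 among them in both, and 1 rose in each, Ret. Of all tested genes, 15.0% were called lower and 13.0% higher against control females, and 10.7% and 9.51% against control males. Isl1, a LIM homeobox factor of sensory and motor neurons, was at 7.60 ± 1.51 CPM in affected females, against 18.6 ± 5.67 CPM in the control males and 18.2 ± 5.17 CPM in the control females (SD, n = 4, 4 and 3). Ret, a receptor of the GDNF family ligands, went the other way, at 11.9 ± 2.05 CPM in affected females, against 5.44 ± 0.642 CPM in the control males and 4.61 ± 1.69 CPM in the control females. The list's median log2 fold change was 0.08 against control males and -0.13 against control females, against -0.02 and -0.00 over all tested genes.

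Progenitor genes did not move together: against control females 3 of 9 rose (Sox2, Sox3 and Sox21) and 2 fell (Notch1 and Fabp7), with 13.0% of all tested genes called higher and 15.0% lower. Against control males 0 rose and 1 fell (Fabp7), with 9.51% of all tested genes called higher and 10.7% lower. Without control female 1, 1 of 9 rose against control females, where 2186 of all 14734 tested genes were called higher. Of 6 tested genes of early embryonic timing, 3 rose against each control group (Lin28a, Nr6a1 and Dnmt3b), with median log2 fold changes of 0.52 against control males and 0.79 against control females. Lin28a, an RNA-binding protein that falls as embryos mature, was at 1018 ± 82.2 CPM in affected females, against 604 ± 183 CPM in the control males and 529 ± 190 CPM in the control females (SD, n = 4, 4 and 3). The summed level of the 7 timing genes in the files was 2790 to 3128 CPM in affected females, against 1505 to 2622 CPM in the control males and 1593 to 2372 CPM in the control females, with no overlap between affected females and controls. Its part in the bHLH result was not tested.

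Some markers of other tissues in the dissection moved too. Against control females 5 of 6 surface ectoderm markers, 4 of 5 neural crest markers, 4 of 7 anterior brain markers and 2 of 5 head mesenchyme markers rose, and 1 of 5 endothelial markers, Tie1, fell. Of all tested genes 13.0% were called higher and 15.0% lower there. Against control males 4 of 6 surface ectoderm, 2 of 5 neural crest, 3 of 7 anterior brain and 1 of 5 head mesenchyme markers rose. In the comparison with control males 9.51% of all tested genes were called higher and 10.7% lower. Of the endothelial markers 0 of 5 passed there by edgeR or DESeq2, and 1 of 5 had an unadjusted p under 0.05. Limma voom called 1 of 5 lower there, with 3251 of all 14542 tested genes. Surface ectoderm markers summed to 215 to 243 CPM in affected females, against 119 to 173 CPM in the control males and 108 to 207 CPM in the control females. Neural crest markers summed to 235 to 296 CPM in affected females, against 184 to 220 CPM in the control males and 159 to 171 CPM in the control females. For the endothelial list the sums were 207 to 259 CPM in affected females, against 184 to 242 CPM in the control males and 223 to 229 CPM in the control females, and for head mesenchyme they were 222 to 274 CPM in affected females, 200 to 242 CPM among the control males and 192 to 228 CPM among the control females. All markers of these lists had counts in every group, and the part of these tissues in the bHLH result was not tested. Of 5 primitive erythroid markers 0 passed in either comparison by edgeR or DESeq2. Limma voom called 3 of them lower against control females and 1 against control males, with 3947 and 3251 of all 14542 tested genes. At an unadjusted p under 0.05 edgeR had 1 of 5 against control females and 0 of 5 against control males. Their summed levels were 1026 to 2123 CPM in affected females, against 1971 to 3423 CPM in the control males and 501 to 4113 CPM in the control females. Without control female 1, 4 of 5 fell against control females and 2 of 5 against control males. In that fit 16.2% and 13.1% of all tested genes were called lower. Between control males and control females 0 genes of any list passed with edgeR or DESeq2. There limma voom called 10 of 17 postmitotic neuron genes and 4 of 15 genes reported downstream of proneural factors lower in control males. It called 872 of all 14542 tested genes lower there. In the other lists limma voom called at most 3 genes there. With all embryos, edgeR had 0 of the 17 and 0 of the 15 at an unadjusted p under 0.05. Without control female 1, edgeR had 7 of 17 and 3 of 15 under 0.05, with median log2 fold changes of -0.44 and -0.28. For primitive erythroid markers it had 4 of 5 under 0.05, against 1012 of all 14734 tested genes. In that fit 0 genes of these lists passed.

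**Figure D5:**
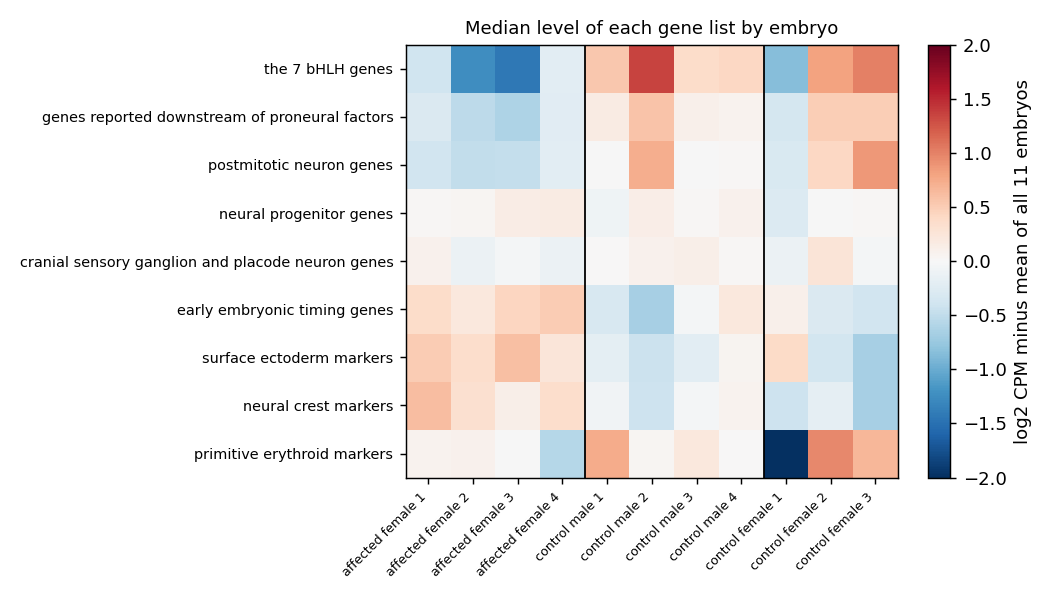
Median over the genes of each list of log2 CPM minus the mean of all 11 embryos (colour, clipped at -2 and 2), by embryo (columns, groups divided by black lines). The 7 bHLH genes, the genes reported downstream of proneural factors and the postmitotic neuron genes are below 0 in all 4 affected females and in control female 1, and timing genes are above 0 in all 4 affected females. Postmitotic neuron genes are also just below 0 in control males 1 and 3, and timing genes are above 0 in control male 4 and control female 1.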

How the data were processed

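The authors deposited whole-number read counts per Entrez gene, 1 file per embryo, with the counted length of each gene. Per the submitters' processing notes, counting used featureCounts on mm10; the aligner, versions and strand setting are not in the labels. Whether reads from overlapping antisense transcripts were kept apart is therefore not known. A deposited table of the whole series was not used.

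Of 27179 identifiers, 25293 received a symbol, 25275 of them from RefSeq (GRCm38.p6), which also gave positions and promoters. Libraries held 8211942 to 11218682 counts. Of pairs within a group none was a duplicate: they gave chi-square values of 2.73 to 31.6 for each degree of freedom, above sampling noise.

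All 11 libraries entered 1 edgeR 4.0.16 quasi-likelihood fit in R 4.3.3 (filterByExpr, TMM, group as the only factor), with p adjusted by Benjamini-Hochberg over 14542 genes. The SE is the size of the log2 fold change divided by the square root of F. Likeness used log2 CPM with a prior count of 2. The fit was tested on simulated data. Alternatives were other scalings and filters, DESeq2 1.42.0, limma 3.58.1 voom with sample weights, robust fitting, fits of 2 groups, a replicate block and leaving out each embryo. Omission of control female 1 with control male 4 was added after the data were seen.

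The 7 genes, the gene lists and the design were chosen with earlier results of these data known. Named list genes were those with the smallest adjusted p against control females, up to 3 per list, and the 3 genes nearest to each of the 7. Hes3, Hey2, Sox3, Notch1 and the promoters shown were chosen after values were seen. Some genes that these rules name are not reported here.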

Additional observations from a re-analysis of the deposited data

Results flagged for a closer look

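In control males, Nhlh2 in replicate 2 stood far above the other embryos of its group, at 14.8 CPM against 6.02, 5.72 and 6.27 CPM in replicates 1, 3 and 4. The gap to the nearest embryo was 0.939 of the group's range, above Dixon's 95% critical value of 0.829 for 4 samples. The rule was applied to 18 groups of values, and chance alone flags about 1 in 20. Without control male 2, Nhlh2 was still lower in affected females than in control males (log2 fold change -1.80, adjusted p = 0.0297 by edgeR). The same embryo was the highest of all 11 for 5 of the 7 genes.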

How the results depend on the processing

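The log2 fold changes of the 7 genes in both comparisons of affected females were negative under every alternative run, and Nhlh1 and Nhlh2 passed the threshold in each (highest adjusted p 0.0278 against control females and 0.0471 against control males, Nhlh2). Against control females the 4 of 7 called became 7 with limma voom, 2 with edgeR's robust fit, 2 with the replicate block, 7 without control female 1 and control male 4, and 2 to 7 when 1 embryo was left out. DESeq2 also called 4 of 7 there, but not the same 4, as Neurod4 did not pass. Of all genes 4073 were called in the main fit and 4073 with the robust fit. The number was 2875 with the replicate block, 4266 with DESeq2, 7639 with limma voom and 5711 without control female 1 and control male 4. With 1 embryo left out it was 1663 (without control female 3) to 4957 (without control male 4). Against control males the 7 of 7 became 6 with DESeq2 and with the robust fit, and 2 to 7 with 1 embryo left out. Of all genes 2940 were called there, 3336 with DESeq2, 2944 with the robust fit and 3418 with the replicate block. The number was 6397 with limma voom and 6014 without control female 1 and control male 4. With 1 embryo left out it was 361 (without affected female 3) to 5140 (without control male 4). Between control males and control females limma voom called 1 of 7, and of all genes 21 were called, 43 with DESeq2, 1569 with limma voom and 18 to 35 with 1 embryo left out. Signs turned only there: Neurog2 had a log2 fold change of -0.24 with limma voom, -0.0047 with the replicate block, -0.26 without control female 1 and control male 4, and -0.12 to 0.37 with 1 embryo left out. Atoh1 had -0.36 with limma voom and -0.082 to 0.53 with 1 embryo left out, Neurod4 -0.47 to 0.29, Nhlh1 0.028 with the replicate block and -0.38 to 0.18, and Nhlh2 -0.61 to 0.36. The cause was not tested. The replicate numbers were not taken as pairs: deviations of same-numbered embryos correlated by -0.14 to 0.18, and the block left 7 of 7 called against control males. With only the affected and control females in the fit Atoh1 was not tested. Atoh1, with 3 to 10 counts in affected females, is limited by depth.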
